A study of Drosophila melanogaster with 12 samples.

Results

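Brains of flies that expressed a pure CAG repeat (CAG100) were compared with brains of flies that expressed CAA/G105, a repeat of about the same size that is broken up by CAA units. The comparison uses 8 of the 12 samples of the series, 4 of each genotype, chosen by their labels alone, and takes in every probe set of the Affymetrix array except the control probe sets, provided it reached a log2 signal of 4 on at least 4 of the 12 arrays. That left 8966 probe sets, which stand for 6969 genes when 1 probe set is kept per gene. The remaining 4 samples, CAG0, carried no repeat and serve here as a further level beside each gene.

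All flies were Drosophila melanogaster females, 3 days old, and all carried elav-GAL4, a driver active in neurons, together with a UAS-DsRed reporter. In CAG100 the reporter held 100 CAG units in its 3' untranslated region and was present in 5 copies. In CAA/G105 it held the interrupted run and was present in 2 copies. In CAG0 it held none and was present in 1 copy. The copy numbers were chosen by the submitters so that the reporter mRNA would be equal, so copy number and kind of repeat cannot be told apart here, and since the labels name no parental strain, strain background and repeat cannot be told apart either. Each sample pooled about 20 brains freed of eyes, lamina and outer medulla, and the submitters call the 4 samples of a genotype independent.

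Expanded CAG runs are best known for the polyglutamine proteins they encode, but a run placed outside a reading frame can also act as RNA. Pure CAG RNA folds back on itself into a hairpin that binds proteins such as muscleblind, whereas CAA interruptions break the regular pairing of that hairpin. The series text calls the pure run toxic and the interrupted run non-toxic and compares each with CAG0; the direct contrast of both repeats, described here, asks which transcripts differ between brains that express one or the other.

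Levels are deposited log2 signals, differences are CAG100 minus CAA/G105 in log2 units with the standard error of limma's model, and a gene is called where limma's p-value, adjusted by the Benjamini-Hochberg method over all 8966 probe sets, lay under 0.05. Where a genotype stayed under log2 4 on all 4 arrays, log2 4 stands in for its level and the size is written as "at least". Levels of different genes are not set against each other, because probe sets differ in brightness. The tissue is a mixture of cells, so fewer cells of a type and less RNA per cell cannot be told apart.

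Arrays of CAG100 correlated with each other at 0.988 to 0.994 over the tested probe sets and arrays of CAA/G105 at 0.981 to 0.992, while arrays of different repeat correlated at 0.966 to 0.976. The neuronal label held: elav read 13.65 to 13.72 in CAG100, 13.66 to 13.77 in CAA/G105 and 13.67 to 13.86 in CAG0 (limma adjusted p = 0.458 between the repeats). Of 13 neuronal marker genes 0 were called, against 20.5% of all genes. However, 2 were called lower without CAG100 replicate 1, and 1 without CAA/G105 replicate 1. The odorant co-receptor gene Orco and the antennal gene lush lay near log2 2 on every array. Other genes of the olfactory and gustatory appendages had signal. The mean level of the 5 tested ones was 7.77 to 8.98 in CAG100 and 7.86 to 9.12 in CAA/G105. Of these 5 genes 1 was called (20%, against 20.5% of all genes). It was Obp99c, higher in CAG100 (0.62, limma adjusted p = 0.0315), which passed under 16 of 24 alternative settings. Akh and jhamt, genes of the retrocerebral gland attached to the brain, lay under log2 2.5 on 3 arrays, which are replicate 3 of CAA/G105 and replicates 1 and 3 of CAG100, whereas Akh read at least 11.04 on the other 9 arrays. These 3 arrays therefore stand apart, and list counts that change by more than 1.5 times when they are left out are given both ways. Of the repeats, replicates 2 and 4 of CAG100 and 1, 2 and 4 of CAA/G105 then remain. The number of called probe sets then falls as a whole, from 1869 to 924. How much of a fall in a list count is due to fewer arrays was not tested. Obp99c was among the genes not called without these arrays.

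The repeats differed at many genes, mostly by little. Of the 6969 genes, 1432 were called (20.5%), of which 713 were higher in CAG100 (10.2% of those tested) and 719 lower (10.3%). Among the called genes the median size of the difference was 0.41 log2 units, and over all tested genes it was 0.13. A difference of 2-fold or more was reached by 239 called genes (3.43%), and here the balance tipped, with 157 higher and 82 lower in CAG100. In 34 called genes the difference was 8-fold or more. The 4 arrays of CAG100 did not overlap the 4 of CAA/G105 in 1722 genes (24.7%), and 1244 of these were called.

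Counted over probe sets, 1869 of 8966 were called (20.8%), with 930 higher (10.4%) and 939 lower (10.5%), 353 reached 2-fold (3.94%), and 2275 did not overlap (25.4%). Without the 3 arrays that lacked the gland signal 924 probe sets were called, 898 of them among the 1869. Probe sets that name no gene were called at a similar rate, 235 of 1079 (21.8%). Of 492 genes with several tested probe sets, 172 had a called one, and in 12 of these different probe sets were called in opposite directions.

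**Figure D1:**
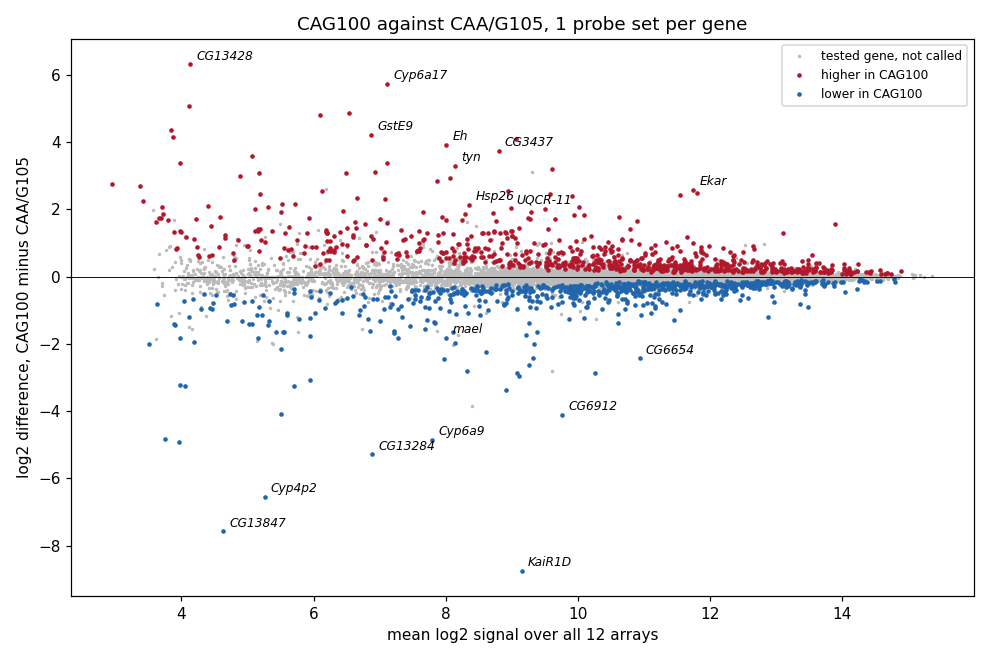
Difference of CAG100 minus CAA/G105 (log2, vertical axis) against the mean log2 signal over all 12 arrays (horizontal axis) for the 6969 genes, with 1 probe set per gene, called genes in red where higher in CAG100 and in blue where lower. Most called genes lie close to 0, while KaiR1D (fitted difference -8.75) and CG13847 (-7.58) mark the lower edge.

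The sharpest contrasts were genes with signal in one repeat genotype and none above log2 4 in the other. Such a gene, if also under log2 4 throughout CAG0, was tested only where all 4 arrays of the repeat with signal reached log2 4. The counts therefore depend on the filter. Of the 1244 called genes without overlap, 26 stayed under log2 4 on all CAA/G105 arrays and 11 on all CAG100 arrays. Among those without signal in CAG100, KaiR1D, a kainate-type glutamate receptor subunit, read 3.33, 3.33, 3.28 and 3.33 in CAG100, against 12.05, 12.10, 12.03 and 12.07 in CAA/G105 and 12.05 to 12.14 in CAG0. The CAA/G105 and CAG0 arrays were thus alike and the CAG100 arrays stood far below, at least 267-fold lower than CAA/G105 (limma adjusted p = 2.68e-17).

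CG13847 had another layout. It read 2.10 or 2.11 on every CAG100 array, against 9.65, 9.65, 9.75 and 9.69 in CAA/G105, and 2.09 to 2.12 in CAG0. Signal above log2 4 appeared in CAA/G105 alone, and CAG100 was at least 51.4-fold lower (limma adjusted p = 4.41e-15). The same layout held for Tsp42Er, a tetraspanin gene, at 2.61, 2.36, 2.36 and 2.33 in CAG100, against 7.77, 7.09, 7.22 and 7.32 in CAA/G105, and 2.11 to 2.14 in CAG0. For Tsp42Er CAG100 was at least 10.2-fold lower (adjusted p = 1.2e-10), and neither repeat overlapped the other.

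CG3984 and CG34002 were likewise under log2 4 in CAG100 and in CAG0 and above it on all CAA/G105 arrays, where CG3984 read 6.12 to 7.50 and CG34002 5.49 to 6.67. The cytochrome P450 gene Cyp4p2 read 2.89, 2.80, 2.76 and 2.52 in CAG100 and 9.37, 9.43, 9.24 and 9.13 in CAA/G105, with 5.56, 3.14, 3.08 and 3.18 in CAG0. One CAG0 array, replicate 1, was thus above log2 4, and CAG100 was at least 39.2-fold lower than CAA/G105 (adjusted p = 5.11e-07). The transcription factor gene retn, which encodes an ARID-domain protein, read 2.41 to 2.82 in CAG100, 5.15 to 6.62 in CAA/G105 and 3.09 to 3.99 in CAG0.

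CG13284 resembled KaiR1D, with 2.25, 3.16, 2.92 and 3.07 in CAG100, 7.88, 7.97, 8.50 and 8.18 in CAA/G105 and 9.56 to 9.80 in CAG0. All 3 genotypes were separate, and CAG100 was at least 17.5-fold below CAA/G105 (adjusted p = 1.48e-09).

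In the other direction, CG13428 read 8.63, 7.89, 8.33 and 8.52 in CAG100, against 2.02 to 2.03 in CAA/G105 and 2.01 to 2.03 in CAG0. It was at least 20.3-fold higher in CAG100 than in CAA/G105 (adjusted p = 1.18e-11), and only the CAG100 arrays had signal above log2 4. The same 1-genotype layout was seen for CG17707, at 7.23 to 7.82 in CAG100, 2.42 to 2.61 in CAA/G105 and 2.25 to 2.34 in CAG0. The anaphase activator gene fzy, the fly Cdc20, read 6.96, 6.39, 6.53 and 7.19 in CAG100, against 2.39, 2.38, 2.37 and 2.46 in CAA/G105, with 2.33 to 2.38 in CAG0. It was at least 6.8-fold higher in CAG100 (adjusted p = 1.16e-09).

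Cp7Fc, which encodes an eggshell protein of the chorion family, read 7.04, 5.92, 6.49 and 6.11 in CAG100, 2.89 to 3.17 in CAA/G105 and 2.29 to 2.78 in CAG0. It was at least 5.23-fold higher in CAG100 (adjusted p = 3.36e-07), and again no CAA/G105 or CAG0 array came near the CAG100 arrays.

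For CG8539, CG33475 and CG5418 the CAA/G105 arrays stood alone at the bottom. CG33475 read 7.64, 8.01, 7.60 and 7.54 in CAG100, against 2.93, 2.62, 3.19 and 2.76 in CAA/G105, while CAG0 read 7.40 to 8.11. It was at least 13-fold higher in CAG100 (adjusted p = 1.75e-09), with the CAG100 and CAG0 arrays intermixed. CG8539 was at least 18.1-fold higher and CG5418 at least 5.5-fold higher in CAG100 than in CAA/G105, with CAG0 at 7.58 to 8.94 for CG8539 and at 4.78 to 6.82 for CG5418. CG11626 differed between all genotypes, at 5.54 to 6.78 in CAG100, 2.55 to 3.84 in CAA/G105 and 4.90 to 5.32 in CAG0. Each of the 16 genes in this group passed under all 24 alternative settings. They were picked as called without overlap on these same arrays, so this is no separate support.

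**Figure D2:**
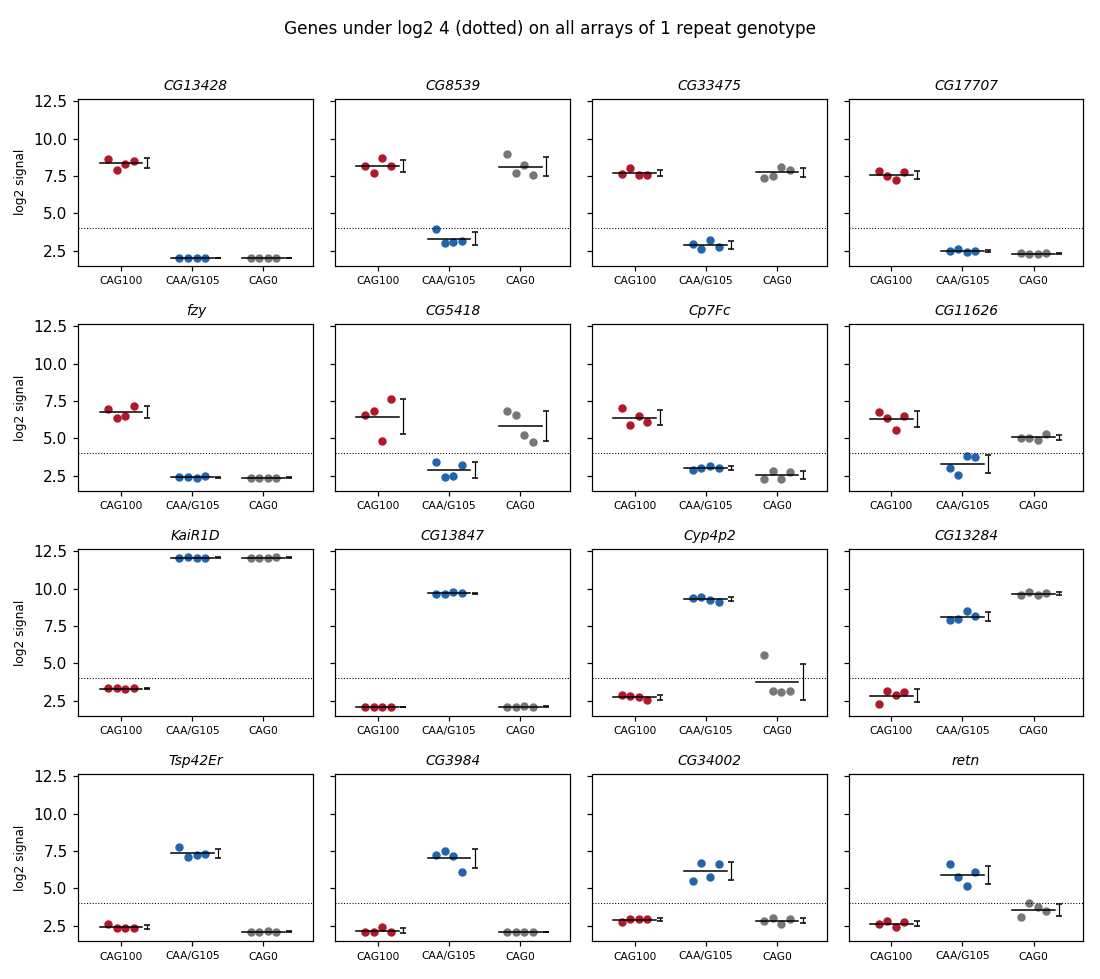
Log2 signal of 16 genes that stayed under log2 4 (dotted line) on all arrays of 1 repeat genotype, with 1 point per array in CAG100 (red), CAA/G105 (blue) and CAG0 (grey), the mean as a bar and the SD over 4 arrays beside it. In the upper 8 panels the signal is in CAG100, and in the lower 8, from KaiR1D on, it is in CAA/G105.

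Among genes measured in both repeats, the largest increase was that of Cyp6a17, a cytochrome P450 gene. It read 12.27, 12.77, 12.49 and 12.45 in CAG100, against 9.61, 6.32, 2.09 and 9.02 in CAA/G105 and 2.07 to 2.10 in CAG0. The CAG100 arrays were tight and above all others, whereas the CAA/G105 arrays spread widely and replicate 3 had no signal above log2 4. The fitted difference was 5.74 ± 1.21 (limma adjusted p = 0.00549).

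The glutathione transferase gene GstE9 followed, at 7.99, 8.57, 9.24 and 9.06 in CAG100 and 4.81, 3.77, 3.75 and 5.63 in CAA/G105, with 6.71 to 8.59 in CAG0. It was 18.7-fold higher in CAG100 (4.23 ± 0.48, adjusted p = 5.74e-05), and only CAA/G105 stood apart. CG3437 had the same layout with less spread, at 9.91 to 10.31 in CAG100, 6.14 to 6.56 in CAA/G105 and 9.85 to 10.09 in CAG0, which makes 13.5-fold (3.75 ± 0.12, adjusted p = 3.54e-10). RPA2, a subunit of the single-strand DNA binding complex replication protein A, read 9.29, 8.83, 9.12 and 9.21 in CAG100, 6.10, 6.26, 5.99 and 6.34 in CAA/G105 and 8.88 to 8.94 in CAG0 (2.94 ± 0.11, adjusted p = 1.83e-09).

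CG11425 (3.39 ± 0.35), CG7054 (3.20 ± 0.25) and CG18213 (3.12 ± 0.16) were also higher in CAG100 than in CAA/G105. For CG11425 the CAG0 arrays overlapped those of CAG100, and for CG7054 they lay between the repeats. For CG18213 CAG0 was the highest genotype, at 8.45 to 8.85 against 7.43 to 7.80 in CAG100. The gene tyn, for a zona pellucida domain protein of the epithelial surface, read 11.02, 10.79, 10.35 and 10.81 in CAG100, 7.59, 7.34, 7.58 and 7.30 in CAA/G105 and 5.78 to 6.42 in CAG0. It therefore differed among all 3 genotypes, by 3.29 ± 0.17 between the repeats (adjusted p = 3.56e-08). CG43074 (3.07 ± 0.36) and CG15695 (3.09 ± 0.53) completed the largest increases together with TotC and Eh, which are described with their groups.

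The largest decrease of a gene measured in both repeats was that of another P450 gene, Cyp6a9. It read 3.71, 4.77, 4.53 and 5.26 in CAG100, against 9.56, 9.82, 9.24 and 9.05 in CAA/G105 and 9.02 to 9.80 in CAG0. CAG100 alone was low, 28.9-fold below CAA/G105 (-4.85 ± 0.30, adjusted p = 2.32e-07). CG6912 read 8.95, 8.16, 9.14 and 9.30 in CAG100 and 13.09, 12.99, 13.04 and 12.89 in CAA/G105, with 7.03 to 7.70 in CAG0, so that CAA/G105 was the high genotype (-4.11 ± 0.22, adjusted p = 6.31e-08).

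Roe1, which encodes the mitochondrial GrpE cochaperone, read 7.0, 7.08, 7.42 and 7.12 in CAG100, 9.92 to 10.10 in CAA/G105 and 9.93 to 10.35 in CAG0 (7.33-fold lower, -2.87 ± 0.11, adjusted p = 3.36e-09). The transcription factor gene NFAT read 7.95 to 8.08 in CAG100, 10.76 to 11.09 in CAA/G105 and 11.37 to 12.24 in CAG0 (-2.86 ± 0.15). Roe1 was low in CAG100 alone, and NFAT was lowest in CAG100 and highest in CAG0. Or63a, an odorant receptor gene, was 6.13-fold lower in CAG100 (-2.61 ± 0.17), and its CAG0 arrays, at 10.22 to 10.74, lay above both repeats.

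Npc2h, of the secreted sterol-binding NPC2 family, read 4.34, 4.90, 4.61 and 3.86 in CAG100 and 8.96, 7.29, 6.43 and 8.04 in CAA/G105 (-3.26 ± 0.48, adjusted p = 0.000493). CG6654 had the smallest standard error of the 12 largest decreases measured in both repeats, at 10.02 to 10.17 in CAG100, 12.40 to 12.59 in CAA/G105 and 10.05 to 10.32 in CAG0 (-2.43 ± 0.07, adjusted p = 1.14e-10), with CAG100 and CAG0 intermixed. CG13679 was lower in CAG100 at all 3 of its probe sets (-2.81, -2.73 and -2.99). CG6040 (-2.95 ± 0.25) and CG6310 (-2.44 ± 0.40) were also lower.

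Cytochrome P450 enzymes oxidise hormones, lipids and foreign compounds. Of 45 tested P450 genes 10 were higher in CAG100 and 13 lower, 51.1% in all against 20.5% of all genes, and the median difference was near 0, at -0.0038 against -0.013 over all genes. Without the 3 arrays that lacked gland signal 8 were higher and 7 lower. Besides Cyp6a17 the higher genes were Cyp12a5, Cyp4d2 (1.38 ± 0.29), Cyp9c1 (1.24 ± 0.23), Cyp12c1 (1.07 ± 0.24), Cyp28c1, Cyp6a2, Cyp28d2, Cyp6a13 and Cyp12e1, the last 5 between 0.33 and 0.74. Cyp12a5 read 4.48, 4.80, 4.86 and 4.78 in CAG100, 2.47 to 2.49 in CAA/G105 and 2.77 to 3.29 in CAG0, so that only CAG100 lay above log2 4 (adjusted p = 9.61e-08). Cyp12a5 was tested only because its CAG100 arrays passed the filter, so its place in the count depends on that filter.

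Of the lower P450 genes 4 lie in one cluster with Cyp6a17 on 2R, and these were Cyp6a9, Cyp6a23 (-3.36 ± 0.27), Cyp6a20 (-2.02 ± 0.20) and Cyp6a19 (-0.73 ± 0.17). Cyp6a23 read 5.83, 6.95, 7.06 and 6.90 in CAG100, 10.09, 10.36, 9.58 and 10.15 in CAA/G105 and 9.58 to 10.34 in CAG0, so CAG100 alone was low. Cyp6a20 read 7.06 to 7.82 in CAG100, 8.94 to 9.86 in CAA/G105 and 10.78 to 11.16 in CAG0. Cyp6a17 and Cyp6a23 are close duplicates, and whether their probe sets tell them apart was not tested.

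Cyp4p1, next to Cyp4p2 in name and family, went the same way, at 4.54, 4.61, 4.81 and 4.65 in CAG100, 8.19, 7.83, 7.41 and 7.50 in CAA/G105 and 4.75 to 6.19 in CAG0 (-3.08 ± 0.27, adjusted p = 6.7e-06). Further lower members were Cyp6g1, which was under log2 4 on all 4 CAG100 arrays and on 1 of 4 CAA/G105 arrays, Cyp9h1 (-1.64 ± 0.18), Cyp18a1 (-1.56 ± 0.40), which inactivates ecdysteroids, Cyp4ac2 (-1.26 ± 0.24), and Cyp12a4, Cyp6u1 and Cyp4ae1 between -0.39 and -0.29.

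Enzymes that conjugate the products were called in both directions too. Of 24 glutathione transferase genes 4 were higher (GstE9, GstT3, GstE13 and GstT1) and 3 lower (GstE11, GstD1 and GstD9), 29.2% in all against 20.5% of all genes. With the 3 arrays lacking gland signal left out, 1 was higher and 2 were lower. GstD1 read 12.72, 13.11, 13.16 and 13.10 in CAG100, against 13.94, 13.94, 13.88 and 13.91 in CAA/G105, with 13.43 to 13.61 in CAG0. Its 3 genotypes did not overlap, and CAG100 was the lowest (1.86-fold lower than CAA/G105, -0.89 ± 0.08, adjusted p = 8.37e-06). Of 12 UDP-glycosyltransferase genes (41.7% called) 1 was higher, Ugt317A1 (0.97 ± 0.19), and 4 lower, among them Ugt302K1 (-1.15 ± 0.29) and Ugt35C1 (-0.72 ± 0.14), but only 2 of those 4 were called when CAG100 replicate 1, 2 or 4, CAA/G105 replicate 1, 2 or 4 or CAG0 replicate 2 was left out, and likewise when the 3 arrays lacking gland signal were.

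Among 17 antioxidant genes 2 were higher and 3 lower, 29.4% in all against 20.5% of all genes. When the 3 arrays lacking gland signal were left out, 1 was higher and 1 lower. The higher count was 1 also without any single one of CAG100 replicates 2 to 4, CAA/G105 replicates 1 to 3 and CAG0 replicates 1 and 4. Prx6c, a peroxiredoxin gene, read 6.47, 2.80, 4.59 and 4.84 in CAG100, against 10.07, 5.82, 9.35 and 9.78 in CAA/G105, and was called lower (-4.08 ± 0.96) although CAG100 replicate 1 lay above CAA/G105 replicate 2. Gclm, the modifier subunit of the enzyme that starts glutathione synthesis, was 1.37-fold lower (-0.45 ± 0.10).

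Neuropeptide precursor genes were often called, and those called were mostly higher in CAG100. Of 30 tested precursors 12 were higher and 3 lower, against 10.2% and 10.3% over all genes, and 15 were not called. The median difference was 0.055, and 17 of the 30 had a difference above 0. The count of higher genes was 10 to 12 under every alternative, while the lower count was 1 when CAG100 replicate 2 or 3, CAA/G105 replicate 3 or 4, or all 3 arrays lacking gland signal were left out. Eh, which encodes eclosion hormone, the trigger of moulting behaviour made by a few brain cells, read 9.10, 8.83, 9.0 and 10.08 in CAG100, against 5.57, 4.59, 6.38 and 4.82 in CAA/G105, and 8.84 to 10.04 in CAG0. CAA/G105 was the low genotype, and CAG100 was 15.1-fold higher (3.91 ± 0.40, adjusted p = 2.37e-05).

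CCAP, the crustacean cardioactive peptide gene of the same ecdysis circuit, read 9.02, 9.07, 9.15 and 9.30 in CAG100, 7.78, 7.84, 8.27 and 8.25 in CAA/G105 and 8.74 to 9.02 in CAG0 (1.10 ± 0.12, adjusted p = 5.45e-05). The leucokinin gene Lk read 8.68, 8.75, 8.65 and 8.83 in CAG100, 7.74, 7.07, 7.57 and 7.73 in CAA/G105 and 8.63 to 9.17 in CAG0 (1.20 ± 0.15). CCHa1, a peptide gene of gut and brain, read 9.50, 9.01, 9.37 and 9.44 in CAG100, 8.17, 8.28, 7.43 and 8.05 in CAA/G105 and 9.44 to 9.84 in CAG0 (1.35 ± 0.18). In these genes too the CAA/G105 arrays lay below both other genotypes, without overlap.

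SIFa, whose product is made in a small group of cells of the pars intercerebralis, was different, at 10.89 to 11.04 in CAG100, 10.07 to 10.44 in CAA/G105 and 10.19 to 10.54 in CAG0, so that CAG100 was the high genotype (0.77 ± 0.09, adjusted p = 8.91e-05). The insulin-like peptide genes Ilp5 (0.65 ± 0.08) and Ilp2 (0.27 ± 0.05) were higher in CAG100 than in CAA/G105, and Ilp5 was highest in CAG0, at 13.87 to 14.09. The other higher precursors were Nplp2 (0.40 ± 0.12), CCHa2 (0.34 ± 0.05), Capa (0.29 ± 0.06), ITP (0.18 ± 0.03) and Dh31 (0.15 ± 0.03). FMRFa (-0.46 ± 0.13), the corazonin gene Crz (-0.22 ± 0.05) and AstC (-0.13 ± 0.04) were lower. Several well-known precursors were not called, among them Pdf (0.21 ± 0.08, adjusted p = 0.102), NPF (0.05 ± 0.06, adjusted p = 0.561) and sNPF (-0.06 ± 0.06, adjusted p = 0.493).

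Of 18 receptor genes for these peptides 1 was higher and 3 lower, 22.2% in all, near the 20.5% of all genes. Lgr3, the receptor of the relaxin-like peptide Dilp8, read 6.60, 6.67, 6.52 and 6.24 in CAG100, 8.14, 8.46, 8.06 and 7.94 in CAA/G105 and 9.31 to 10.01 in CAG0 (-1.64 ± 0.16, adjusted p = 1.53e-05). The allatostatin C receptor gene AstC-R1 read 10.46 to 10.79 in CAG100, 11.51 to 11.64 in CAA/G105 and 9.79 to 10.24 in CAG0 (-0.98 ± 0.09). The order of the genotypes therefore differed between these 2 receptors, although CAG100 lay below CAA/G105 in both. The leucokinin receptor gene Lkr (0.36 ± 0.10) was called higher, but not without CAG100 replicate 2 or 4 or CAA/G105 replicate 3 or 4, and not when the 3 arrays lacking gland signal were left out.

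Of 19 genes for peptide processing and dense core vesicles 15.8% were called, against 20.5% of all genes. The amidating lyase gene Pal2 was higher (0.18 ± 0.04), and the peptidase gene Nep2 (-0.73 ± 0.13) and Rab2 (-0.38 ± 0.09) were lower. None of the 3 was called without the 3 arrays that lacked gland signal.

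**Figure D3:**
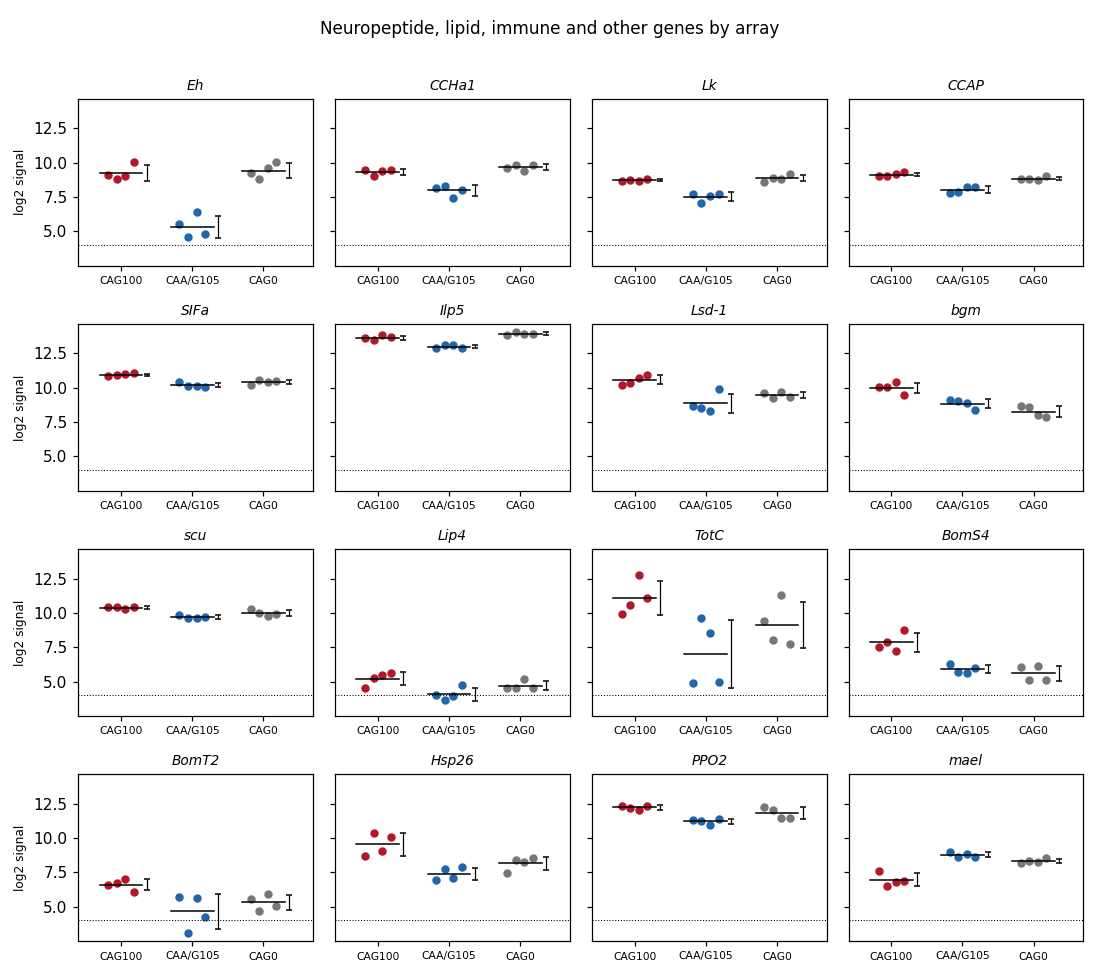
Log2 signal per array of 16 genes of the neuropeptide, lipid, immune and other lists in CAG100 (red), CAA/G105 (blue) and CAG0 (grey), with the mean as a bar, the SD over 4 arrays beside it and log2 4 as a dotted line. Eh, CCHa1, Lk and CCAP are lowest in CAA/G105, while SIFa, bgm and BomS4 are highest in CAG100.

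Of 25 tested genes of fatty acid and lipid metabolism 10 were higher in CAG100 (40%), 0 were lower and 15 were not called. Over all genes 10.2% were called higher and 20.5% in either direction. Of the 25 lipid genes 24 had a difference above 0, with a median of 0.19 against -0.013 over all genes. With 1 array left out 7 to 10 were called higher, and 4 without the 3 arrays that lacked gland signal. Lsd-1, the perilipin that coats lipid droplets, read 10.23, 10.38, 10.74 and 10.97 in CAG100, 8.71, 8.53, 8.34 and 9.91 in CAA/G105 and 9.26 to 9.71 in CAG0 (1.71 ± 0.29, adjusted p = 0.00133). The repeats did not overlap, and CAA/G105 replicate 4 came closest to CAG100.

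The very-long-chain acyl-CoA synthetase gene bgm read 10.04, 10.08, 10.41 and 9.50 in CAG100, 9.11, 9.07, 8.87 and 8.35 in CAA/G105 and 7.84 to 8.65 in CAG0 (1.16 ± 0.24, adjusted p = 0.00469). The mitochondrial dehydrogenase gene scu read 10.26 to 10.46 in CAG100, 9.60 to 9.86 in CAA/G105 and 9.77 to 10.27 in CAG0 (0.68 ± 0.10). CAG100 was thus the highest genotype in bgm, and nearly so in scu, where CAG0 overlapped it by 1 array. Also higher were the lipase gene Lip4 (1.15 ± 0.28), Mtpbeta of fatty acid oxidation (0.43 ± 0.13), the triglyceride-making acyltransferase gene mdy (0.34 ± 0.08), the lipocalin gene NLaz (0.34 ± 0.07), the fatty acid synthase gene FASN1 (0.23 ± 0.07) and fabp (0.19 ± 0.05). Elovl7 was called as well, at least 1.84-fold higher, but its arrays read 3.32 to 6.36 in CAG100 and 2.98 to 3.21 in CAA/G105, and it passed under only 9 of 23 alternatives.

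Of the subunits of oxidative phosphorylation, those called were higher in CAG100 and most were not called. Called higher were 5 of 26 in complex I (19.2%) and 2 of 10 in complexes II and III (20%). In complex IV 3 of 12 were higher (25%) and in complex V, the ATP synthase, 6 of 13 (46.2%). Over all genes 10.2% were called higher and 20.5% in either direction. In each of these lists 0 were lower, and the medians lay between 0.085 and 0.097. UQCR-11 of complex III was the exception in size, at 9.96, 9.65, 9.75 and 9.60 in CAG100, against 8.25, 7.35, 7.50 and 7.65 in CAA/G105, and at least 9.10 in CAG0. CAA/G105 alone was low (4.15-fold, 2.05 ± 0.21, adjusted p = 2.21e-05). Every other called subunit differed by at most 0.23, the value for ATPsynB (± 0.04, adjusted p = 0.00302), whose arrays read 13.56 to 13.75 in CAG100, 13.39 to 13.49 in CAA/G105 and 13.53 to 13.67 in CAG0.

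These counts of subunits depended on single arrays. In complex V 2 were called without CAG100 replicate 2 or 3 or CAA/G105 replicate 3, and 3 without CAG100 replicate 4 or CAA/G105 replicate 2 or 4. In complex I 3 were called without CAG100 replicate 3 or 4 or CAA/G105 replicate 2 or 3, but 10 without CAG100 replicate 1, 11 without CAA/G105 replicate 1 and 8 without CAG0 replicate 3. In complex IV 6 were called without replicate 1 of either repeat, 1 without CAG100 replicate 2 or 3, and 0 without CAG100 replicate 4 or CAA/G105 replicate 2 or 3. In complexes II and III 4 were called without CAA/G105 replicate 1 and 1 without CAG100 replicate 3 or 4 or CAA/G105 replicate 2 or 3. Without the 3 arrays that lacked gland signal 1 was called in complex I, 1 in complexes II and III, 0 in complex IV and 1 in complex V.

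Of 30 genes of sugar metabolism and the citrate cycle 7 were higher and 4 lower (36.7%, against 20.5% of all genes). The higher ones included Pepck1, the gluconeogenic carboxykinase, at 9.22, 9.84, 9.19 and 8.88 in CAG100, 6.92, 8.47, 8.25 and 8.18 in CAA/G105 and 8.83 to 10.16 in CAG0 (1.33 ± 0.36, adjusted p = 0.0221). The hexokinase gene Hex-C (1.08 ± 0.27) and the trehalose synthase gene Tps1 (0.76 ± 0.23) were higher as well, and the phosphoglycerate mutase gene Pglym78 was lower (-0.42 ± 0.07). The higher count was 4 without CAG100 replicate 2 or CAA/G105 replicate 2 and 1 without the 3 arrays that lacked gland signal.

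Fat body, the fly's store of lipid and sugar, was followed by its markers. Of 13 tested fat body and haemolymph genes 2 were called (15.4%, against 20.5% of all genes). Both were higher, Yp3 (0.37 ± 0.11) and FASN1, which the lipid list also holds. The mean level of the 13 genes ranged from 12.00 to 12.36 in CAG100, from 11.94 to 12.14 in CAA/G105 and from 12.03 to 12.74 in CAG0. The larval serum protein gene Lsp2 read 3.46 to 5.30 in CAG100 and 4.63 to 5.82 in CAA/G105. Neither yolk protein gene Yp1 nor Yp2 was called. With 1 array left out 0 to 4 of the 13 were called higher, and 0 without the 3 arrays lacking gland signal, and the part of fat body in the lipid and sugar genes was not tested.

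Over all genes 10.2% were called higher and 20.5% in either direction. Of 16 immune-induced genes that were tested, 6 were higher in CAG100 (37.5%) and 0 lower, with a median difference of 1.09. Their arrays scatter widely: without CAG100 replicate 3, or without the 3 arrays that lacked gland signal, 3 were called. TotC, a Turandot stress protein gene, read 9.91, 10.58, 12.73 and 11.10 in CAG100, against 4.86, 9.63, 8.56 and 4.94 in CAA/G105, with 7.71 to 11.34 in CAG0. The repeats did not overlap, but CAG0 covered much of both (4.08 ± 1.13, adjusted p = 0.0232, passed under 17 of 24 alternatives).

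Bomanins are short secreted peptides induced through the Toll pathway. BomS4 read 7.54, 7.91, 7.20 and 8.78 in CAG100, 6.25, 5.72, 5.65 and 6.01 in CAA/G105 and 5.09 to 6.09 in CAG0, so that CAG100 alone was high (1.95 ± 0.33, adjusted p = 0.0014). BomT2 (1.93 ± 0.51), BomBc2 (1.44 ± 0.45) and BomS2 (1.18 ± 0.33) were higher as well. For BomBc2 the repeats overlapped, with 9.28 on CAG100 replicate 4 and 9.39 on CAA/G105 replicate 1, and it passed under 13 of 24 alternatives. PGRP-LF, an inhibitor of the IMD pathway, was also higher, at 5.87 to 6.35 in CAG100, 4.09 to 5.56 in CAA/G105 and 4.75 to 5.57 in CAG0 (1.35 ± 0.29). The antimicrobial peptide genes themselves were not called: DptB read 5.47, 11.22, 9.99 and 9.23 in CAG100 and 3.18, 6.31, 9.87 and 6.09 in CAA/G105 (2.61 ± 1.35, adjusted p = 0.193), and Drs differed by -0.75 ± 0.32 (adjusted p = 0.12).

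Of 23 genes of the Toll, IMD and JAK-STAT pathways 0 were higher and 3 lower (13%, against 20.5% of all genes). All 3 were of the Toll branch. The ligand gene spz read 8.75, 9.13, 9.09 and 9.18 in CAG100, 9.83, 9.50, 9.84 and 9.85 in CAA/G105 and 9.15 to 9.52 in CAG0 (-0.71 ± 0.12, adjusted p = 0.00117). The receptor gene Tl (-0.35 ± 0.08) and the transcription factor gene dl (-0.34 ± 0.10) were lower too, but a second probe set of each was not called (-0.0092 ± 0.10 for Tl and 0.09 ± 0.13 for dl), and with the mean of all probe sets of a gene 1 of the 3 was called.

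Haemocytes, the fly's blood cells, were followed in the same way. Of 20 tested haemocyte and basement membrane genes 4 were higher, 1 was lower and 15 were not called (25% called, against 20.5% of all genes), and their mean level ranged from 10.36 to 10.75 in CAG100, from 9.81 to 10.40 in CAA/G105 and from 10.38 to 10.92 in CAG0. The prophenoloxidase gene PPO2 of crystal cells read 12.35, 12.18, 12.01 and 12.35 in CAG100, 11.34, 11.20, 10.93 and 11.37 in CAA/G105 and 11.44 to 12.28 in CAG0 (1.01 ± 0.18, adjusted p = 0.00151). PPO1 (0.86 ± 0.23), LanB1 (0.72 ± 0.22) and the basement membrane gene SPARC (0.42 ± 0.07) were higher, and 2 were called higher without CAG100 replicate 4. When the 3 arrays lacking gland signal were left out, 3 were higher and 0 lower. The plasmatocyte genes Hml, at 10.06 to 10.63 in CAG100 and 8.78 to 10.13 in CAA/G105, and NimC1 were not called. The part of haemocytes in the immune result was not tested.

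Of 22 heat shock and chaperone genes 1 was higher, Hsp26, and 2 lower, Hsp27 and CCT7, 13.6% in all against 20.5% of all genes. The higher count was 4 without CAG100 replicate 1 and 2 without CAA/G105 replicate 4 or CAG0 replicate 3. The lower count was 1 without CAG100 replicate 1, 2 or 3 or CAA/G105 replicate 3 or 4, and 0 when the 3 arrays lacking gland signal were left out, where Hsp27 had an adjusted p of 0.134. The small heat shock protein gene Hsp26 read 8.64, 10.36, 9.04 and 10.03 in CAG100, 6.92, 7.70, 7.10 and 7.85 in CAA/G105 and 7.46 to 8.53 in CAG0, so that CAG100 was highest without overlap (2.13 ± 0.37, adjusted p = 0.00161). Hsp27, of the same protein family, went the other way, at 4.21, 4.83, 4.13 and 4.71 in CAG100, 5.31 to 5.43 in CAA/G105 and 5.18 to 6.03 in CAG0 (-0.89 ± 0.20, adjusted p = 0.00717). The cytosolic chaperone gene Hsc70-4 (0.12 ± 0.04, adjusted p = 0.061), its cochaperone gene DnaJ-1 (0.00 on the log2 scale, ± 0.09) and the master regulator gene Hsf (-0.10 ± 0.04, adjusted p = 0.117) were not called. In the unfolded protein response 1 of 19 was higher (ERp60, 0.23 ± 0.06) and 1 lower (Creld, -0.30 ± 0.10). That is 10.5% called, against 20.5% of all genes, and 0 were called when the 3 arrays lacking gland signal were left out.

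For protein breakdown the shares over all genes were again 10.2% called higher, 10.3% lower and 20.5% in either direction. Of 31 proteasome subunit genes 5 were higher (16.1%) and 0 lower, by 0.16 to 0.27, and 27 had a difference above 0 (median 0.088). The count of higher subunits was 8 without CAG100 replicate 1, 3 without CAG100 replicate 2 and 2 without CAG100 replicate 4. It was 1 without CAG100 replicate 3 or CAA/G105 replicate 2 or 3, and 0 without the 3 arrays that lacked gland signal. Among 37 autophagy and lysosome genes 1 was higher and 5 lower (16.2% called). Atg18b, which binds the phosphoinositide of forming autophagosomes, read 9.79, 9.64, 9.81 and 9.59 in CAG100, 10.85, 11.08, 10.89 and 10.91 in CAA/G105 and 9.52 to 9.81 in CAG0 (2.34-fold lower, -1.22 ± 0.09, adjusted p = 7.53e-07). CAA/G105 alone was high. The proteases Atg4b (-0.39 ± 0.07) and Atg4a (-0.25), the activating enzyme Atg7 (-0.34 ± 0.09) and the cathepsin cathD (-0.13) were lower by less, and the lysosomal thioesterase gene Ppt1 was higher (0.62 ± 0.13). Ppt1 was not called without the 3 arrays that lacked gland signal, where 0 of the 37 were higher. The autophagosome protein gene Atg8a (0.01 ± 0.04) and the cargo receptor gene ref(2)P (0.11 ± 0.07) were not called.

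Of 28 genes for repeat RNA binders and RNA granule proteins 1 was higher and 4 lower, all by under 0.3. That is 17.9% in all, near the 20.5% of all genes. The muscleblind gene mbl read 12.37, 12.10, 11.96 and 12.28 in CAG100, 12.24, 12.36, 12.36 and 12.31 in CAA/G105 and 12.13 to 12.49 in CAG0 (-0.14 ± 0.09, adjusted p = 0.31), so the genotypes overlapped. The RNA-binding protein genes mub (-0.12 ± 0.05, adjusted p = 0.133) and orb2 (-0.15 ± 0.06, adjusted p = 0.12) were not called either. Those called were the hnRNP gene Hrb87F (0.28 ± 0.05), and sm, the ataxin-2 gene Atx2, pum and ps at -0.19 to -0.09. The lower count was 1 without CAG100 replicate 2 and 2 without CAG100 replicate 3 or CAA/G105 replicate 3. With the 3 arrays lacking gland signal left out, 2 were higher and 1 lower.

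Of 39 splicing factor genes 2 were higher, Sf3b6 (0.32 ± 0.05) and SF2 (0.18 ± 0.04), and 1 lower, Hel25E (-0.24 ± 0.06), which also counts among the 3 lower of 37 RNA export and nuclear pore genes. The splicing and export factor gene U2af50 read 12.01 to 12.18 in CAG100, 12.12 to 12.33 in CAA/G105 and 11.93 to 12.10 in CAG0 (-0.13 ± 0.06, adjusted p = 0.132). Of the splicing factors 7.69% were called and of the export genes 8.11%, against 20.5% of all genes. With 1 array left out 0 to 4 of the export genes were called lower: 0 without CAG100 replicate 2 or CAA/G105 replicate 1 or 4, and 1 without replicate 3 of either repeat. When the 3 arrays lacking gland signal were left out 0 export genes were lower, and 1 splicing factor gene was higher and 0 lower.

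In the small RNA pathways 4 of 20 were lower in CAG100 and 0 higher (20%). Over all genes 20.5% were called in either direction and 10.3% lower. The piRNA pathway gene mael read 7.62, 6.49, 6.79 and 6.87 in CAG100, 8.99, 8.63, 8.81 and 8.60 in CAA/G105 and 8.18 to 8.54 in CAG0, so that CAG100 was lowest and CAA/G105 highest without overlap (-1.81 ± 0.20, adjusted p = 4.54e-05). Hen1, which methylates the ends of small RNAs, read 6.43 to 6.74 in CAG100, 7.33 to 8.21 in CAA/G105 and 5.29 to 6.14 in CAG0 (-1.0 ± 0.22). The microRNA-processing pair pasha (-0.44 ± 0.10) and drosha (-0.27 ± 0.07) was lower, whereas Dcr-2, which cuts double-stranded RNA, was not called (-0.02 ± 0.10, adjusted p = 0.898). Without the 3 arrays that lacked gland signal 1 of the 20 was called.

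Among 25 nucleolar genes 4 were higher and 1 lower (20%, against 20.5% of all genes), and 2 were higher and 0 lower when the 3 arrays lacking gland signal were left out. The DEAD-box helicase gene pit read 10.01, 9.99, 10.13 and 10.01 in CAG100, 8.41, 7.88, 8.34 and 8.51 in CAA/G105 and 9.14 to 9.63 in CAG0 (3.37-fold, 1.75 ± 0.14, adjusted p = 2.38e-06). TAF1B of the RNA polymerase I machinery was higher (0.75 ± 0.15) and ppan, needed for ribosome assembly, lower (-0.65 ± 0.14). Of 29 cytosolic ribosomal protein genes 27 had a difference above 0. Called higher were 6 (20.7%, against 10.2% of all genes), by 0.06 to 0.20, and 0 were lower. The higher count was 3 without CAG100 replicate 2 or 3 or CAA/G105 replicate 2, and 2 without CAA/G105 replicate 3. It was 1 without the 3 arrays that lacked gland signal.

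Of 26 DNA repair genes 5 were called, 19.2% against 20.5% of all genes called in either direction and 10.3% called lower. The median difference of the list was -0.10, and the 5 called genes were all lower in CAG100 at the probe set used. They were the tyrosyl-DNA phosphodiesterase gene gkt, the ATM kinase gene tefu (-0.61 ± 0.12), Parp1 (-0.44 ± 0.11), mre11 (-0.37 ± 0.10) and the helicase gene Blm (-0.21 ± 0.05), and 3 were called without CAG100 replicate 4. For tefu the arrays read 6.4, 6.11, 6.51 and 6.41 in CAG100, 7.0, 6.95, 6.88 and 7.06 in CAA/G105 and 6.81 to 7.25 in CAG0. The 2 probe sets of gkt were called in opposite directions (-0.90 ± 0.15 and 0.36 ± 0.07), so its direction depends on the probe set, and with the mean of all probe sets of a gene 4 of the 26 were lower.

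Of 19 cell cycle and kinetochore genes 3 were higher and 5 lower (42.1% called, against 20.5% of all genes). The higher ones were fzy, the G1 cyclin gene CycE and the spindle checkpoint gene Bub3. Of these, fzy passed the filter only through its CAG100 arrays. CycE read 8.14, 8.06, 7.66 and 8.50 in CAG100, 5.64, 6.56, 6.52 and 6.84 in CAA/G105 and 6.15 to 6.93 in CAG0, with CAG100 alone high (1.7 ± 0.27, adjusted p = 0.000856). Bub3 was 1.4-fold higher (0.48 ± 0.07), while its partner Bub1 was 1.48-fold lower (-0.57 ± 0.13). The separase gene Sse (-0.78 ± 0.21), the Cdc25 phosphatase gene twe (-0.60 ± 0.19), Mad1 (-0.30) and cal1 (-0.25) were lower too. The lower count was 2 without CAG100 replicate 2 or 3 or CAA/G105 replicate 2 or 3, 3 without CAG100 replicate 4. It was also 2 when the 3 arrays lacking gland signal were left out.

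Among 38 neurotransmitter receptor genes 4 were higher and 6 lower (26.3%, against 20.5% of all genes). Beside KaiR1D, the glutamate receptor gene Ekar was called in the opposite direction, at 13.53, 13.54, 13.49 and 13.74 in CAG100, 10.94, 10.64, 10.99 and 11.37 in CAA/G105 and 10.56 to 10.90 in CAG0. CAG100 alone was high, by 6.03-fold over CAA/G105 (2.59 ± 0.13, adjusted p = 3.14e-08). The acetylcholine receptor subunit gene nAChRbeta3 (1.71 ± 0.44), GluRIIA (0.94 ± 0.30) and the octopamine receptor gene Octalpha2R (0.60 ± 0.13) were higher as well.

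Another octopamine receptor gene, Octbeta2R, read 6.44, 6.43, 6.24 and 6.46 in CAG100, 7.53, 7.99, 7.66 and 7.43 in CAA/G105 and 6.21 to 6.59 in CAG0, so that CAA/G105 alone was high (-1.27 ± 0.13, adjusted p = 2.63e-05). Oct-TyrR, GABA-B-R1, Nmdar1 and nAChRbeta1 were lower by 0.14 to 0.30 in size. The lower count was 10 without CAG100 replicate 1, 2 without CAG100 replicate 2, 3 or 4 or CAA/G105 replicate 2 or 3, and 3 without the 3 arrays that lacked gland signal. Without those 3 arrays 1 of the 38 was higher.

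Of 37 voltage-gated and leak channel genes 7 were lower and 0 higher (18.9%), with a median of -0.096. Over all genes 10.3% were called lower and 20.5% in either direction. The potassium channel gene Elk read 7.32, 6.97, 6.77 and 7.29 in CAG100, 7.66, 7.78, 8.33 and 8.26 in CAA/G105 and 7.44 to 8.58 in CAG0 (-0.92 ± 0.24, adjusted p = 0.0162). Slob, a partner of the Slowpoke channel, was lower at its brighter probe set (-0.61 ± 0.10) and not called at its other one (0.09 ± 0.09). The leak channel subunit gene unc79 (-0.40 ± 0.06), the sodium channel auxiliary genes Teh4 (-0.35 ± 0.08) and Teh1 (-0.28 ± 0.06), stj (-0.21 ± 0.06) and sei (-0.18 ± 0.04) completed the group. The pore-forming genes para (0.05 ± 0.14), Sh (-0.01 ± 0.06) and cac (-0.07 ± 0.04) were not called. With 1 array left out 5 to 9 of the 37 were lower, and 6 without the 3 arrays that lacked gland signal.

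Of 34 synaptic vesicle and active zone genes 2 were higher, Eps-15 (0.55 ± 0.10) and Syt7 (0.33 ± 0.05), and 3 lower, 15% in all, and the active zone gene brp was not called (-0.09 ± 0.13). Of 26 genes for transmitter synthesis and transport 2 were higher and 2 lower (15.4%). In both lists 1 was higher when the 3 arrays lacking gland signal were left out. Among the transporters 0 were higher without CAG100 replicate 4, 1 was higher without CAG100 replicate 3 or any one CAA/G105 array, and 4 were lower without replicate 1 of either repeat. The dopamine transporter gene DAT read 10.67, 10.55, 10.39 and 10.62 in CAG100, 11.04, 11.05, 11.05 and 10.96 in CAA/G105 and 11.01 to 11.15 in CAG0 (-0.47 ± 0.06, adjusted p = 0.000248), with CAG100 alone low. The vesicular acetylcholine transporter gene VAChT was 1.12-fold lower (-0.16 ± 0.03).

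Among 18 activity-regulated genes sr, the fly Egr transcription factor, read 10.91, 11.13, 10.25 and 11.02 in CAG100, 12.23, 12.33, 12.01 and 11.94 in CAA/G105 and 11.14 to 11.53 in CAG0 (2.46-fold lower, -1.30 ± 0.17, adjusted p = 0.000181). CAG100 lay below CAG0 and CAA/G105 above it. Arc2 was lower (-0.64 ± 0.18) and Shark higher (0.57 ± 0.10), which makes 16.7% called, against 20.5% of all genes. Of the activity-regulated genes 1 was lower without CAG100 replicate 2 or CAA/G105 replicate 1 or 4, and when the 3 arrays lacking gland signal were left out. Of 25 cell death and JNK genes 1 was higher and 1 lower (8%, against 20.5% of all genes). The TNF ligand gene egr was higher, at 11.42 to 11.75 in CAG100, 11.02 to 11.23 in CAA/G105 and 11.41 to 11.47 in CAG0 (0.53 ± 0.07). A second egr probe set was higher too (0.77 ± 0.14), and the kinase gene msn was lower (-0.46 ± 0.06). Of 16 clock genes 2 were lower, dco and Pdp1, and of 31 chromatin genes 4 were lower, led by the remodeller gene brm (-0.38 ± 0.06). These are 12.5% and 12.9%, against 20.5% of all genes. When the 3 arrays lacking gland signal were left out, 1 clock gene and 2 chromatin genes were lower. The clock count was 1 without replicate 3 of either repeat, CAG100 replicate 2 or CAA/G105 replicate 4, and the chromatin count was 2 without CAA/G105 replicate 2 and 7 without CAG0 replicate 3.

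Other cells of the dissected tissue were checked by their markers. Of 18 glial genes 4 were higher and 3 lower, all by under 0.5. That is 38.9% called, against 20.5% of all genes. The higher count was 1 or 2 without any single array of either repeat or CAG0 replicate 2, and 0 without the 3 arrays that lacked gland signal. The mean level of the list was 12.40 to 12.49 in CAG100 and 12.42 to 12.44 in CAA/G105. The part of glia in the other results was not tested. Of 16 muscle genes only flightin, fln, at 9.90 to 9.95 in CAG100, 7.77 to 8.12 in CAA/G105 and 9.78 to 10.22 in CAG0, was higher (1.94 ± 0.11), and Act79B was lower (-0.91 ± 0.27). These make 12.5% called, against 20.5% of all genes. Act79B was not called without any single CAG100 array, without CAA/G105 replicate 3 or without the 3 arrays that lacked gland signal. The mean of the muscle list ranged from 6.86 to 8.84 in CAG100 and from 6.86 to 10.07 in CAA/G105, and the flight muscle actin gene Act88F was under log2 4 on all 4 CAG100 arrays and on 3 of 4 CAA/G105 arrays, with 7.20 on CAA/G105 replicate 1. Of 18 photoreceptor and lamina genes 1 was higher and 2 lower, 16.7% called against 20.5% of all genes. When the 3 arrays lacking gland signal were left out 0 were lower.

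**Figure D4:**
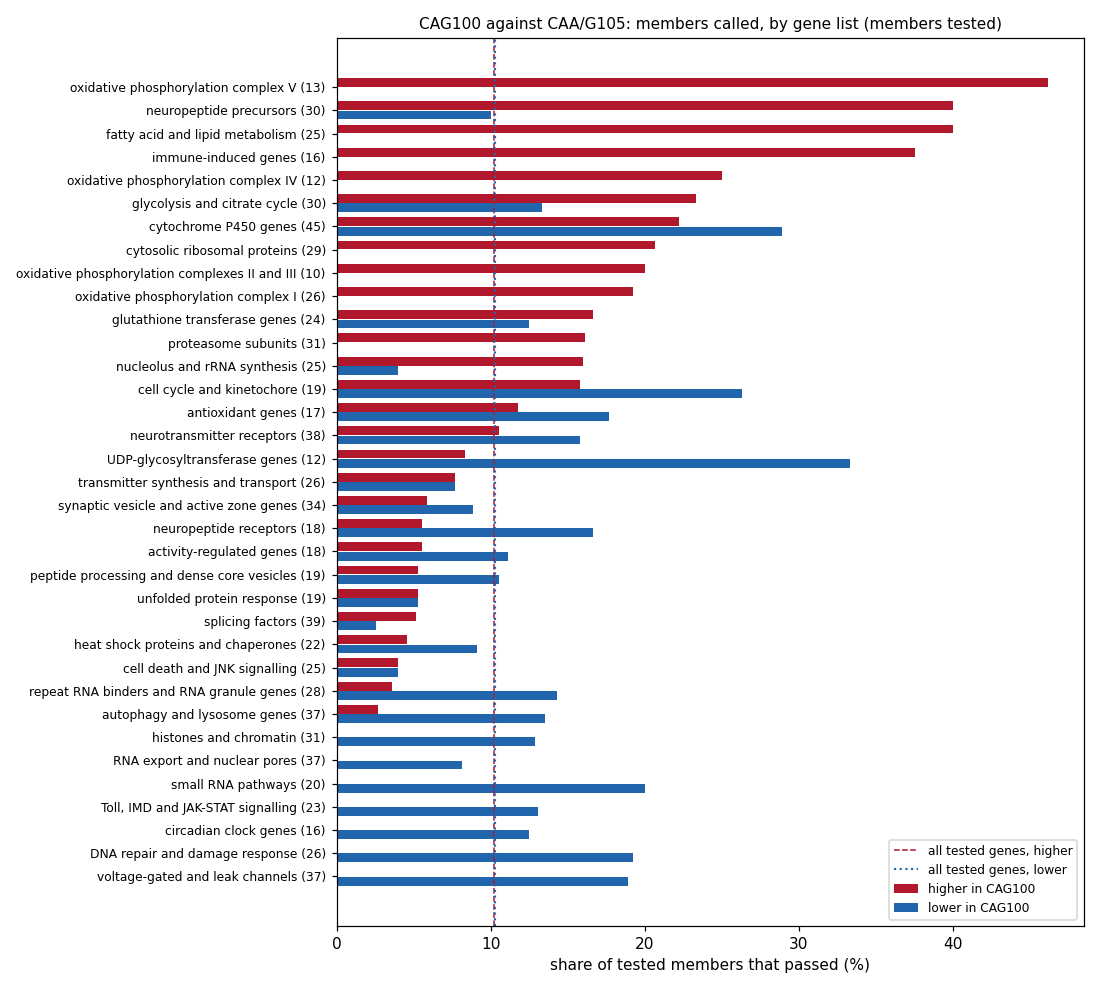
Share of the tested members of each function list that were called (percent, horizontal axis), with bars for genes higher in CAG100 (red) and lower in CAG100 (blue), the number tested in brackets, and vertical lines for all tested genes (10.2% higher and 10.3% lower). The longest red bars belong to complex V, neuropeptide precursors and lipid genes, and the longest blue bars to UDP-glycosyltransferase and P450 genes.

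Called genes were unevenly spread over the chromosome arms. On the X 142 of 1135 tested genes were called (12.5%), against 19.1% on 2L, 21.1% on 2R, 26.6% on 3L, 21.8% on 3R and 22% of the 59 genes on chromosome 4. Called differences of 2-fold or more made up 0.881% of the tested genes on the X, and 2.6%, 4.37%, 4.5%, 4.04% and 5.08% on 2L, 2R, 3L, 3R and 4. The median difference was close to 0 on every arm, between -0.022 and 0.0027.

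Such genes also lay side by side. Of 238 genes called at 2-fold or more with a known position, 42 had a tested neighbour that was also called at 2-fold or more (17.6%), whereas 415 of the 6711 other tested genes had such a neighbour (6.18%). The longest run was the Bomanin group on 2R, BomS4, BomBc2, BomS2 and BomT2, all called higher in CAG100, BomBc2 with overlap between the repeats. On 3L the run CG43074, Eip63E and CG10359 was higher. Eip63E, which encodes a cyclin-dependent kinase, read 12.74, 12.63, 12.50 and 12.67 in CAG100, 10.63, 9.93, 9.91 and 10.12 in CAA/G105 and 12.51 to 12.73 in CAG0 (2.49 ± 0.13, adjusted p = 5.94e-08), and CG10359 was 3.23-fold higher (1.69 ± 0.29).

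On 3R the run CG42788 (-1.13 ± 0.09), CG6912 and CG3984 was lower in CAG100. In all 3 of these neighbours CAA/G105 was the high genotype, with CG42788 at 10.29 to 10.68 in CAG100, 11.55 to 11.63 in CAA/G105 and 10.67 to 10.98 in CAG0. Within the Bomanin run CAG100 was the high genotype on average, and within the 3L run CAA/G105 was the lowest on average.

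**Figure D5:**
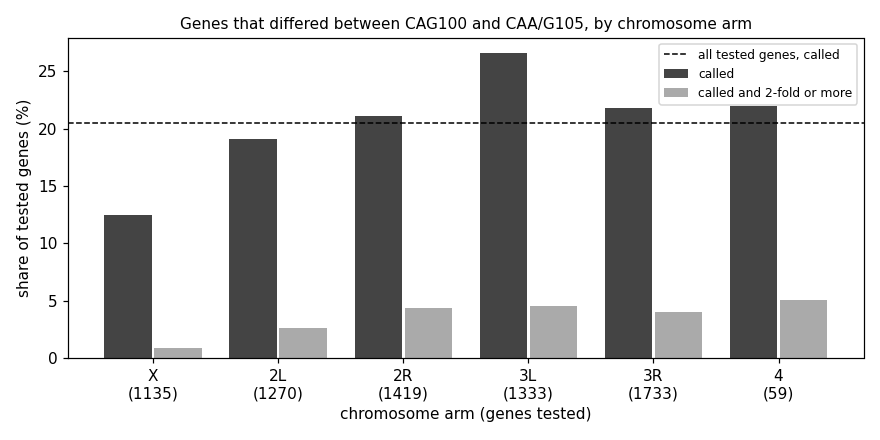
Share of tested genes that were called (dark bars) and called at 2-fold or more (light bars) in CAG100 against CAA/G105, by chromosome arm (percent, vertical axis), with the number of tested genes in brackets and a dashed line for all genes (20.5%). The X, at 12.5%, lies lowest, and 3L, at 26.6%, highest.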

How the data were processed

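Messenger RNA of 12 samples was hybridised to 1 single-colour Affymetrix Drosophila array each, after whole-transcript amplification of cDNA per the labels' protocols. The deposited values are log2 signals per probe set, made with GCRMA and Partek per the submitters' processing notes, with no versions or settings given, and were used as deposited. They lay between 1.75 and 15.96. Precision is limited by how many arrays there are. Of 18952 probe sets 183 are controls, 13647 name 1 gene, 402 several and 4720 none, and 9803 missed the filter of log2 4 on 4 arrays. Symbols came from the array's annotation, and 13544 single-gene probe sets matched the gene table, used for names and gene order. No coordinates or sequences are given.

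The 12 arrays entered a single limma 3.58.1 model (R 4.3.3, variance trend) with a mean per genotype, and p-values were adjusted by the Benjamini-Hochberg method over 8966 probe sets, with a threshold of 0.05. The pipeline was tested on simulated data. Per gene the brightest probe set was used. Comparisons with CAG0 share arrays with the one described, so only levels are given for it.

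The members and gene lists were chosen with earlier results of these data known. Named by rule were, among called genes without overlap, the 12 largest increases and 12 largest decreases measured in both repeats. From the same genes came the 8 brightest seen in only 1 repeat in each direction. With or without overlap, up to 4 called genes per list were named (2 with the smallest p where none passed). Defining markers, elav and Akh were named as well. Further list members, the genes of runs, and genes given as not called were chosen after their values were seen. Replicate numbers were not taken as pairs, since the labels give no batch. Residuals of same-numbered CAG100 and CAA/G105 arrays correlated at -0.26, 0.03, 0.16 and 0.34. For replicate 1 of CAA/G105 and CAG0 the value was 0.39. Whether samples of the same number shared a batch was not tested. Alternatives covered the filter, scaling, variance model, array weights, arrays in the fit, replicate block, threshold, probe set of a gene and leaving out arrays. RNA of glands, fat body, haemocytes and muscle was followed by marker genes only.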

Additional observations from a re-analysis of the deposited data

Results flagged for a closer look

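In 18 of 340 groups of 4 arrays of the named genes 1 array stood far from the other 3. Chance does this in about 1 of 20 groups, and 18 of 340 is near that. In CAG100 the arrays that stood apart were replicate 1 for Cyp6a23 (log2 5.83, the others 6.90 to 7.06), Dh31-R (10.66), GstD1 (12.72) and egr (11.42), replicate 3 for pit (10.13) and Octbeta2R (6.24), and replicate 4 for Cpr51A (7.51). In CAA/G105 they were replicate 1 for Atg7 (9.27), RpL28 (13.88) and shi (13.91), and replicate 2 for Prx6c (5.82, the others 9.35 to 10.07), Creld (10.53), gkt (10.15) and spz (9.50). The others were CAA/G105 replicate 3 for LanB1 (7.05) and Akh (2.06, the others 11.32 to 12.92), and replicate 4 for DAT (10.96) and unc79 (13.48).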

How the results depend on the processing

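The number of called probe sets, 1869, was 979 (525 higher in CAG100, 454 lower) at a threshold of 0.01 and 924 (482 and 442) without the 3 arrays with Akh under log2 4, where 5 arrays of the repeats remain. With 1 array left out it was 1353 (without CAG100 replicate 2) to 2156 (without CAG100 replicate 1), with 686 to 1027 higher, 627 to 1129 lower and 335 to 382 at 2-fold or more. It was 1584 with no filter, 1798 and 1858 with other filters, 1906 and 1980 after rescaling, 1753 and 1872 with other variance models, 2566 with array weights, 1850 with the 8 repeat arrays alone and 1730 with the replicate number as a block. Of the 12 arrays 5 correlated best with an array of their own number, and the numbers were not taken as pairs. Of 171 named genes that passed, 87 passed under every alternative, and 0 named differences changed sign. Of 2250 list counts under alternatives 1842 lay within 1.5 times of the reported count. Rescaling moved the median of all probe sets from -0.016 to at most -0.025. Limits: 4 arrays per genotype, with 5 transgene copies in CAG100 against 2 in CAA/G105, so small differences in bright genes rest on little replication, and genes near log2 4 have no reliable fold.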
